A study of Mus musculus with 2 samples.

Results

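Transforming growth factor beta (TGF-beta) genes were examined in whole-genome bisulfite data of 2 populations of mouse adipose progenitors. The 10 genes were the ligands Tgfb2 and Tgfb3, the receptors Tgfbr1, Tgfbr2 and Tgfbr3, the signal transducers Smad2 and Smad3, the inhibitory Smad6 and Smad7, and Ldlrad4. A region was counted for a gene when it overlapped the gene's RefSeq span or the 2 kb on either side, and 60 of the 28141 differentially methylated regions listed by the authors met this rule. Those regions were chosen from the same contrast that is described here, and the genes were chosen with earlier results known, so levels and directions are given as descriptions without a test.

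The PDGFRα+ library came from C57BL/6 adipose progenitors sorted magnetically for PDGFRα (CD140), which binds platelet-derived growth factor and is carried by mesenchymal progenitors. The CD137+ library came from C57BL/6 progenitors sorted for CD137, a costimulatory surface receptor that also marks beige precursors. Both populations were grown in culture, exposed to an adipogenic cocktail and given dexamethasone, a synthetic glucocorticoid, at 1 µM, so no untreated cells were compared. The labels name subcutaneous and visceral fat as sources and do not say which gave which library, or whether animals were pooled. Each group had 1 library, so no difference has a replicate check. A methylation level is the fraction of a region's cytosines read as methylated. The read depth behind a level is unknown, and a change in the mixture of cells cannot be told apart from a change within cells.

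TGF-beta ligands bring a type II receptor (Tgfbr2) and a type I receptor (Tgfbr1) together at the cell surface, aided by the co-receptor betaglycan (Tgfbr3), and the type I receptor then phosphorylates Smad2 and Smad3, which enter the nucleus with Smad4. Smad6 and Smad7 inhibit the pathway as feedback, and Ldlrad4, a membrane protein, was described in human cells as an inhibitor that holds receptor-regulated Smads away from the receptor. In adipose tissue the pathway is known for restraining adipocyte differentiation and for driving fibrosis. DNA methylation within a gene body or a distal element has no fixed relation to expression, and expression was not measured in these libraries.

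The listed regions of these genes were mostly less methylated in PDGFRα+ cells, to the same extent as listed regions in general. Of the 60 regions, 47 (78.3%) were lower and 13 (21.7%) were higher in PDGFRα+, against 77.7% lower and 22.3% higher over all listed regions. The share of lower regions is thus near the background and is not a result about these genes. The 8 genes with a region all had more lower than higher ones, against 70.4% of protein-coding genes with a region that were mostly lower, while Tgfbr1 and Smad2 held none. This count rests on thin majorities in 4 of them. With 10 kb in place of 2 kb on either side, Tgfbr2 became mostly higher and Tgfb3 was split. With an absolute difference of at least 0.5 required, Smad3 (3 lower, 3 higher) and Smad7 (1 and 1) were split, and Smad7 was also split when neighbours of one direction within 1 kb were merged and when only regions with an area statistic above the median were kept. A region was found at 29.5% of protein-coding genes, and at 48.9% of the protein-coding genes between 22.299 and 328.277 kb long, the length range of the 10 genes. In the 47 lower regions the median level was 0.254 in PDGFRα+ cells against 0.813 in CD137+ cells, and the median of the differences was -0.53. In the 13 higher regions it was 0.893 in PDGFRα+ cells against 0.388 in CD137+ cells, and the median of the differences was 0.52. Over all listed regions the median differences were -0.53 and 0.51. All 60 regions lay wholly inside a gene span, and none touched a second protein-coding gene or its flanks. Of the 60, 6 lay at or within 2 kb of a noncoding gene, among them the lncRNA genes Gm31292 in Tgfbr2, Gm51710 in Smad3 and Gm52336 in Ldlrad4. Exon positions were not used here, so exons and introns were not told apart.

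**Figure D1:**
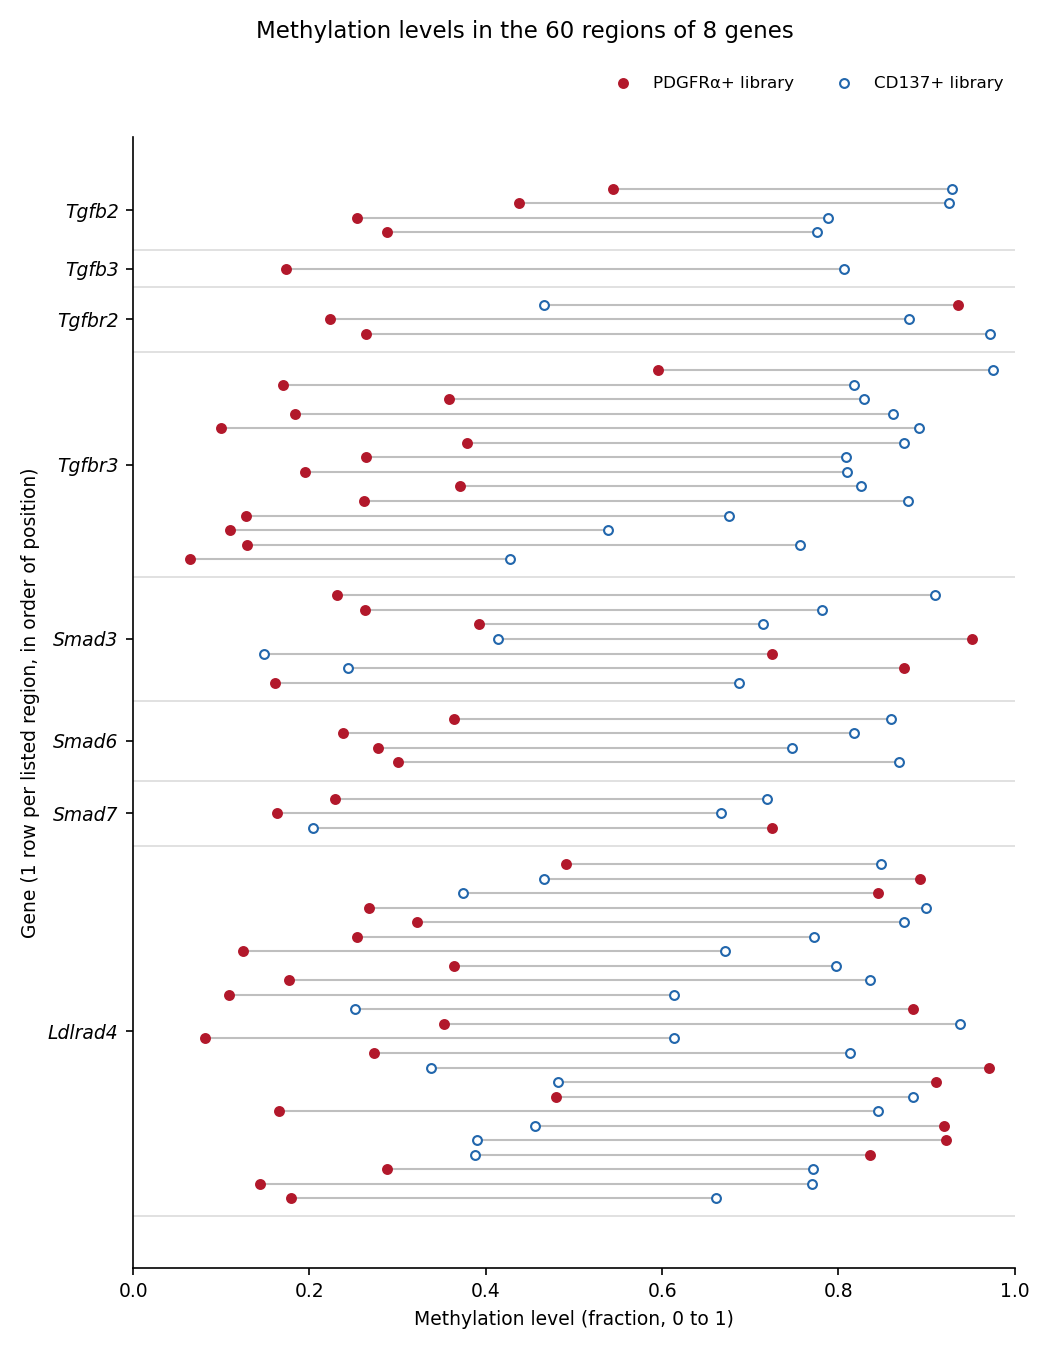
Methylation level (fraction, horizontal axis) of each of the 60 regions, 1 row per region ordered by position within its gene, in the PDGFRα+ library (filled red) and the CD137+ library (open blue), joined by a grey line. Every row of Tgfb2, Tgfb3, Tgfbr3 and Smad6 has the PDGFRα+ level on the left, while Tgfbr2, Smad3, Smad7 and Ldlrad4 hold rows of both directions.

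In size and density the 60 regions were near the whole list. Their median length was 249 bases, against 216 over all regions, and their median number of cytosines was 11, against 9. Cytosine density had a median of 4.49 per 100 bases, against 4.62. An absolute difference of at least 0.6 was found in 17 of the 60 (28.3%), against 23.4% of all regions. Tgfbr3 and Ldlrad4 together held 38 of the 60, and the other 6 genes with a region held 22, of which 17 were lower and 5 higher.

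**Figure D2:**
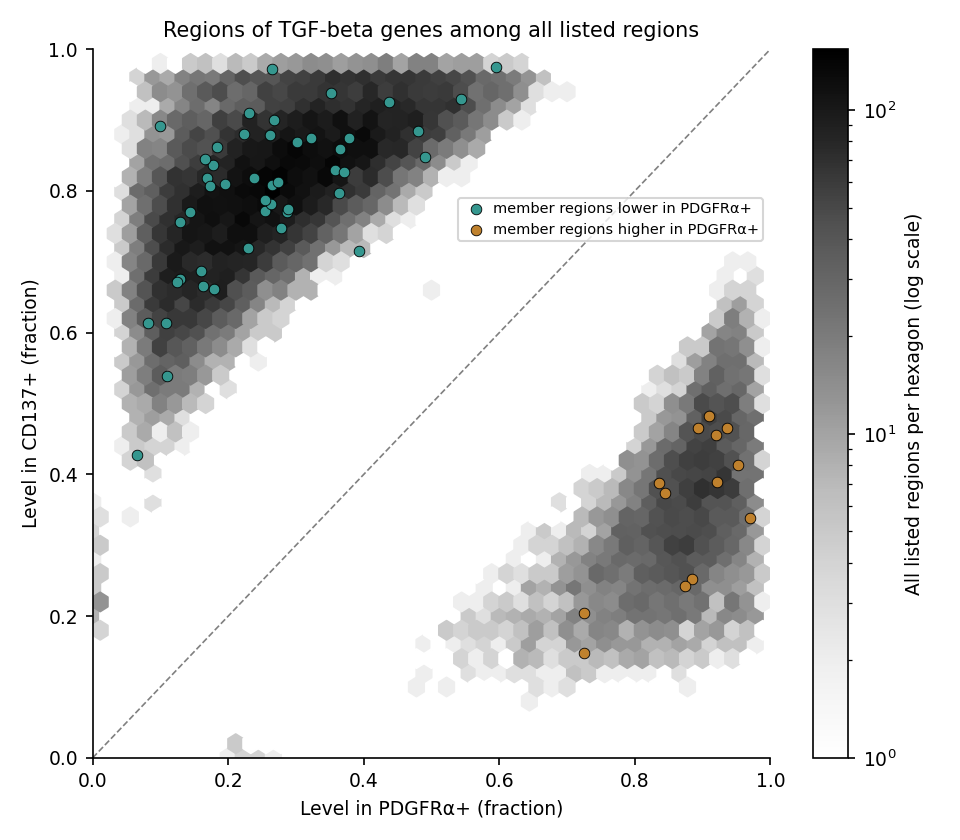
Level in PDGFRα+ (horizontal axis, fraction) against level in CD137+ (vertical axis, fraction) for all 28141 listed regions (grey hexagons, counts on a log scale) and the 60 regions of the TGF-beta genes (green, 47 lower in PDGFRα+; brown, 13 higher). The coloured points lie within both clouds of the whole list, away from the dashed line of equal levels.

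No listed region reached a matched promoter window of these genes, a count near the background and not a result about them. RefSeq promoter windows (250 bases before to 50 after a start, GRCm38.p6) were matched for 5 of the 10 genes, in 6 windows. Tgfbr3, Tgfb3, Ldlrad4, Smad2 and Smad7 had no matched window. None of the 6, which include those of Tgfbr1, a gene without a listed region, was overlapped, against 1.42% of 32817 windows overall. The 250 bases upstream of 4 of the matched genes are shown, because the body regions described next are measured from them. Each CG dinucleotide, the unit that carries methylation here, is in capitals. All 4 genes lie on the minus strand, and the sequences read 5′ to 3′ towards the start.
Tgfb2, chr1:186705990-186706239: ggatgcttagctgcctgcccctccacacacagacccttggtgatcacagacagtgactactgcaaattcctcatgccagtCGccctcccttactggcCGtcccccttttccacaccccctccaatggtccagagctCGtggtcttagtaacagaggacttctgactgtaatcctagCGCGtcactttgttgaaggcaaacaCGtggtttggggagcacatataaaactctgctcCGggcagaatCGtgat
Tgfbr2, chr9:116175364-116175613: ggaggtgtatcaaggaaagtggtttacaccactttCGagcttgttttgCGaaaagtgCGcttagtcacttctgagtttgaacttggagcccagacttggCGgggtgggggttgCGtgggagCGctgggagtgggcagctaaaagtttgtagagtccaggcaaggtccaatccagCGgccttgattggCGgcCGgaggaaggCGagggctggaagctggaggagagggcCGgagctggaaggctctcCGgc
Smad3, chr9:63757995-63758244: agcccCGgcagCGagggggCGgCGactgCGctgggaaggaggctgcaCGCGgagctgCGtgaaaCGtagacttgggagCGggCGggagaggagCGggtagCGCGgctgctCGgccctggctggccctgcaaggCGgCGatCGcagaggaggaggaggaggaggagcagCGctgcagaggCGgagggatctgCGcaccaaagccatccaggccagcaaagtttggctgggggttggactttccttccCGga
Smad6, chr9:64022060-64022309: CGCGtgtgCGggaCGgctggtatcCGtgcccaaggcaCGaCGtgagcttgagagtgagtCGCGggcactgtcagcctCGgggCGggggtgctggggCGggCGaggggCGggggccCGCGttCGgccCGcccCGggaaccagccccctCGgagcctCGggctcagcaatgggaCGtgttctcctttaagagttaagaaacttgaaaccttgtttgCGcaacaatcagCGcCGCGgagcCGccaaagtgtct

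Smad6 held 27 CG dinucleotides in these 250 bases, Smad3 22, Tgfbr2 12 and Tgfb2 8, against a median of 6 over all windows. The nearest listed region lay 4.24 kb from the start of Tgfb2, 11.6 kb from that of Smad3, 22.8 kb from that of Tgfbr2 and 23.8 kb from that of Smad6. The matched start of Tgfb2 lies inside the gene span, and its nearest region lay 7.95 kb from the upper end of the gene. No matched window covers that end. Windows without a listed region were not called different by the authors, and their levels are not known here.

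The ligand genes were lower in PDGFRα+ in each of their regions. Tgfb2, a ligand of mesenchymal and developing tissues, held 4 regions in its 86.911 kb, and 2 of them lay 114 bases apart at chr1:186675400-186675460 and chr1:186675575-186675642. Their levels were 0.544 and 0.438 in PDGFRα+ cells, against 0.929 and 0.926 in CD137+ cells. The other two, nearer the start, stood at 0.254 and 0.288 in PDGFRα+ cells, against 0.788 and 0.775 in CD137+ cells. The pair farther from the start thus had higher levels in both libraries than the pair nearer to it. Of the 4 Tgfb2 regions 2 held only 4 cytosines, the smallest number in the list.

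Tgfb3, another ligand gene of the family, held 1 region of 1300 bases with 23 cytosines, the longest of the 60. It lay at chr12:86077136-86078435, 0.606 kb inside the upper end of the gene, with a level of 0.173 in PDGFRα+ cells against 0.807 in CD137+ cells. Of the 60 regions it lay closest to the limit of the gene span. Outside the 2 kb flanks, 9.02 kb from the other end, a region that lies also at Ttll5 had the opposite direction, with 0.975 in PDGFRα+ cells against 0.347 in CD137+ cells.

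The receptor genes differed from each other in how many regions they held and in direction. Tgfbr1, encoding the type I receptor kinase, held no region in its 61.705 kb (chr4:47353222-47414926), and the nearest lay 10.4 kb away. That region, of 16 cytosines, was higher in PDGFRα+, at 0.958 in PDGFRα+ cells against 0.295 in CD137+ cells.

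Tgfbr2, encoding the type II receptor kinase, held 3 regions in 87.669 kb. The 2 lower ones, at chr9:116148769-116149122 and chr9:116152487-116152540, had levels of 0.224 and 0.264 in PDGFRα+ cells, against 0.880 and 0.972 in CD137+ cells. The remaining region, at chr9:116139631-116139683, was higher, at 0.936 in PDGFRα+ cells against 0.466 in CD137+ cells. The larger of the lower regions held 15 cytosines and each of the other two held 4, so the higher region rests on few sites. The region nearest outside the flanks lay 2.72 kb beyond the lower-coordinate end, the opposite end from the start. It was the first of a group of 3, all higher in PDGFRα+, with levels of 0.876, 0.880 and 0.912 in PDGFRα+ cells, against 0.252, 0.454 and 0.383 in CD137+ cells. With 10 kb on either side the gene therefore held 4 higher and 2 lower regions, and its majority turned.

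Tgfbr3, which encodes betaglycan, was lower in PDGFRα+ in all 14 of its regions (183.063 kb, chr5:107106567-107289629). Of the 88 protein-coding genes with 14 or more regions, 11 (12.5%) had every region lower. The levels in PDGFRα+ lay between 0.0647 and 0.595 with a median of 0.190, and those in CD137+ between 0.428 and 0.975 with a median of 0.822. The region with the widest difference of all 60, chr5:107167037-107168012, was 976 bases long with 36 cytosines, the most in any of the 60. Its level was 0.0996 in PDGFRα+ cells against 0.892 in CD137+ cells. In the authors' deposited table its area statistic, -502, was the 67th most negative of 21870 lower regions.

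The regions of Tgfbr3 were not alike along the gene. The 3 within 6 kb of the upper end, from chr5:107284395 to 107288314, had levels of 0.109, 0.129 and 0.0647 in PDGFRα+ cells, against 0.539, 0.757 and 0.428 in CD137+ cells. The other 11 had a median of 0.262 in PDGFRα+ cells against 0.829 in CD137+ cells. A stretch of 49.8 kb without a listed region separated them by position, but their levels overlapped. Of the 11, the region next to that stretch had 0.129 in PDGFRα+ cells against 0.676 in CD137+ cells. At the other end of the gene, the first region (chr5:107119468-107119546) had the highest level of the 14 in each library, at 0.595 in PDGFRα+ cells against 0.975 in CD137+ cells. The median difference over the 14 was -0.55, and 6 had an absolute difference of at least 0.6. With only regions of at least 10 cytosines kept, 9 remained, all lower.

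**Figure D3:**
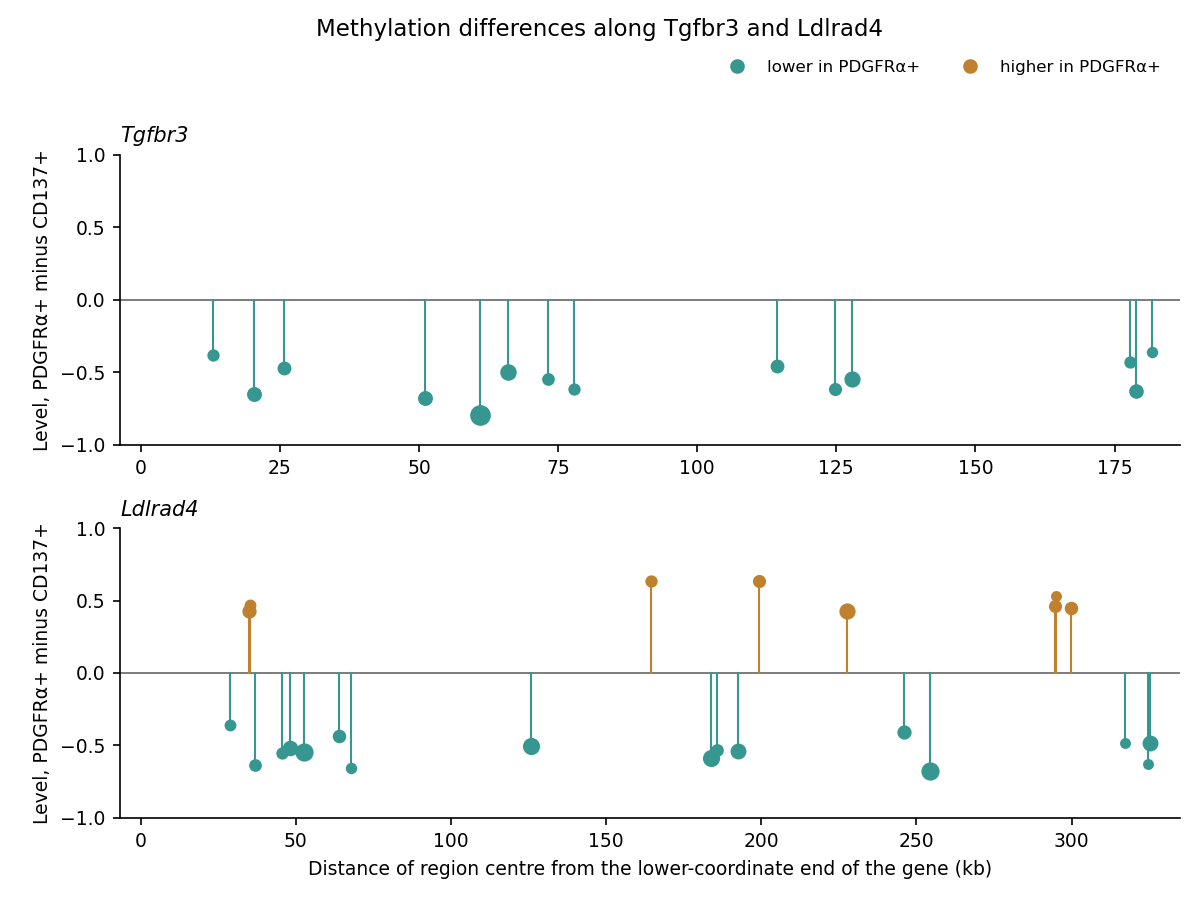
Difference in methylation level (PDGFRα+ minus CD137+, vertical axis) of each region of Tgfbr3 and Ldlrad4 by distance of its centre from the lower-coordinate end of the gene (horizontal axis, kb), with larger points for more cytosines. All 14 points of Tgfbr3 lie below 0, and the 24 of Ldlrad4 alternate between runs of lower (green, 16) and higher (brown, 8) regions.

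Ldlrad4 held more regions than any other of the 10 genes, in both directions. The gene, 328.277 kb long at chr18:67932274-68260550, held 24 regions, 16 lower and 8 higher in PDGFRα+, and 0.124% of protein-coding genes with a region had 24 or more. That share was not matched for gene length, and the median length of protein-coding genes was 17.146 kb. Per 100 kb of gene and flanks, the number was 7.22, close to 7.48 in Tgfbr3 and below 9.21 in the short Smad7. The 16 lower regions had levels from 0.0812 to 0.491 in PDGFRα+ cells with a median of 0.261, and from 0.613 to 0.938 in CD137+ cells with a median of 0.805. The 8 higher regions had levels from 0.836 to 0.971 in PDGFRα+ cells with a median of 0.901, and from 0.252 to 0.482 in CD137+ cells with a median of 0.389.

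Along Ldlrad4 the directions came in 9 runs. After 1 lower region 28.8 kb from the lower-coordinate end, a pair of higher regions 66 bases apart (chr18:67966887-67967188 and chr18:67967255-67967369) stood at 0.893 and 0.844 in PDGFRα+ cells, against 0.466 and 0.374 in CD137+ cells. A run of 7 lower regions followed over 89.3 kb, and its first began only 1721 bases after the pair, at 0.267 in PDGFRα+ cells against 0.900 in CD137+ cells. The higher region with the widest difference in Ldlrad4, chr18:68096698-68096836, stood alone in the middle of the gene, at 0.885 in PDGFRα+ cells against 0.252 in CD137+ cells. A second higher region with almost the same difference, chr18:68131339-68131565, had 0.971 in PDGFRα+ cells against 0.338 in CD137+ cells. It was followed by the higher region with the most cytosines (19, at 0.910 in PDGFRα+ cells against 0.482 in CD137+ cells).

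The lower region with the widest difference in Ldlrad4 was chr18:68186357-68187026, with 26 cytosines in 670 bases, and had a level of 0.166 in PDGFRα+ cells against 0.845 in CD137+ cells. In the authors' deposited table it had the gene's most negative area statistic, -311. Farther on, 3 higher regions lay within 5.31 kb (chr18:68226846 to 68232153), at 0.920, 0.922 and 0.836 in PDGFRα+ cells, against 0.456, 0.390 and 0.388 in CD137+ cells. The last 3 regions, within 8.25 kb near the upper end, were lower again, at 0.288, 0.143 and 0.179 in PDGFRα+ cells, against 0.771, 0.770 and 0.661 in CD137+ cells. With an absolute difference of at least 0.5 required, 3 of the 8 higher regions remained, and with at least 10 cytosines 5 of them did.

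The Smad genes were mixed. Smad2, encoding a receptor-regulated Smad, held no region in 70.659 kb (chr18:76241090-76311748), and the nearest, 25.1 kb away, was higher in PDGFRα+ (0.893 in PDGFRα+ cells against 0.421 in CD137+ cells). Smad3, the other receptor-regulated Smad of the pathway, held 7 regions in 111.229 kb, 4 lower and 3 higher. The 3 higher ones were neighbours in a stretch of 25.9 kb (chr9:63714835 to 63740748), 17.2 to 42.9 kb from the start. Their levels were 0.952, 0.725 and 0.874 in PDGFRα+ cells, against 0.413, 0.148 and 0.243 in CD137+ cells, and the value of 0.148 was the lowest CD137+ level of the 60 regions. Lower regions lay on both sides of this stretch.

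The lower region of Smad3 nearest the start, chr9:63745803-63746436, held 25 cytosines and had a level of 0.161 in PDGFRα+ cells against 0.688 in CD137+ cells. The 3 lower regions farther from the start had levels of 0.231, 0.263 and 0.393 in PDGFRα+ cells, against 0.910, 0.782 and 0.715 in CD137+ cells. The last of these had the narrowest difference of all 60 regions, -0.32. With at least 10 cytosines required, 1 higher region of Smad3 remained.

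Smad6, an inhibitory Smad best known for restraining bone morphogenetic protein (BMP) signals, lies 195 kb from Smad3 on the same chromosome and was lower in 4 of 4 regions. These were spaced over the gene body, 23.8 to 62.5 kb from the start. Their levels, in order of position, were 0.364, 0.238, 0.277 and 0.301 in PDGFRα+ cells, against 0.859, 0.818, 0.747 and 0.869 in CD137+ cells. The 4 regions were close to each other in both libraries, and none reached an absolute difference of 0.6. Between both genes lay 3 more listed regions, all lower in PDGFRα+.

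Smad7, the inhibitory Smad that acts on the TGF-beta type I receptor, held 3 regions within 1.91 kb, in opposite directions (chr18:75385960 to 75387867, in a gene of 28.571 kb). The 2 lower ones had levels of 0.229 and 0.163 in PDGFRα+ cells, against 0.719 and 0.666 in CD137+ cells. The higher one, 792 bases farther, had 0.725 in PDGFRα+ cells against 0.204 in CD137+ cells. They held 10, 18 and 15 cytosines. Across the 8 genes, 7 pairs of neighbouring regions lay less than 1 kb apart, and the Smad7 pair 792 bases apart was the only one of the 7 with opposite directions, while 94.5% of such close pairs in all protein-coding genes had the same direction. Over all 52 neighbouring pairs within a gene, 40 (76.9%) had the same direction, near the 73.3% over all protein-coding genes.

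**Figure D4:**
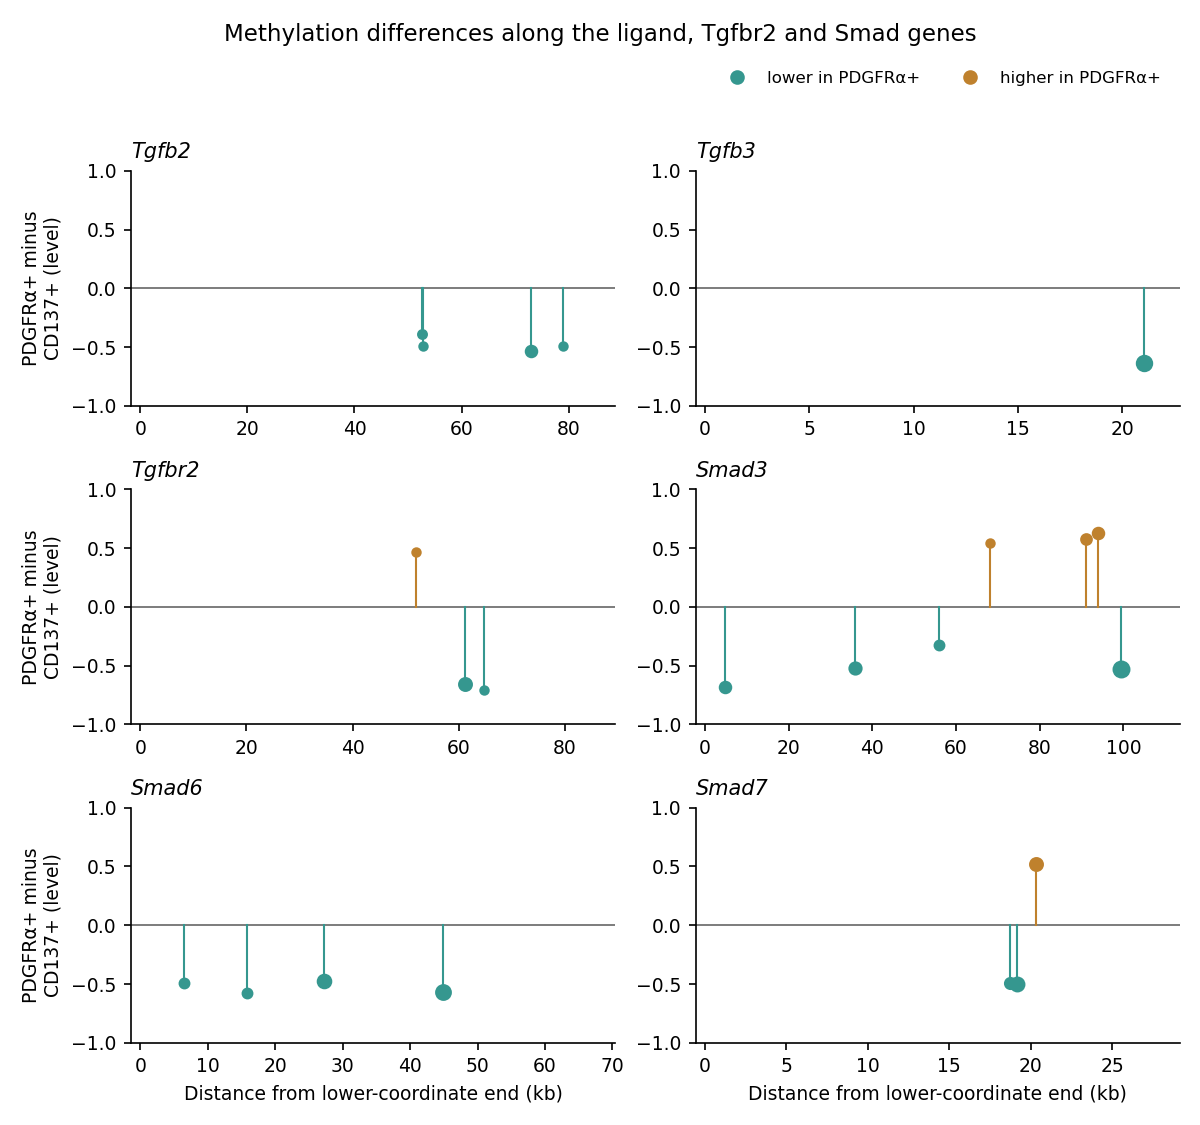
Difference in methylation level (PDGFRα+ minus CD137+, vertical axis) by distance from the lower-coordinate end of the gene (horizontal axis, kb) for the regions of Tgfb2, Tgfb3, Tgfbr2, Smad3, Smad6 and Smad7, with larger points for more cytosines. Higher regions (brown) are seen once in Tgfbr2, in 3 neighbours of Smad3 and once in Smad7, and all other points lie below 0.

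Both directions were present in 4 of the 7 genes with at least 3 regions (Tgfbr2, Ldlrad4, Smad3 and Smad7), against 58.7% of protein-coding genes with at least 3 regions.

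Further genes of the pathway were near the background in direction. In 6 lists of the family with 91 genes, 42 (46.2%) held a region, against 29.5% of all protein-coding genes. Of the 42, 32 were mostly lower, 8 mostly higher and 2 split in PDGFRα+, against 70.4% mostly lower and 21.6% mostly higher among all protein-coding genes with a region. Of their 129 regions, 100 (77.5%) were lower, and the median of their differences was -0.485, against -0.488 over all regions. The list genes were not matched for length with all genes. Where 1 level per library is given for a gene with several regions, it is the mean over its regions.

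**Figure D5:**
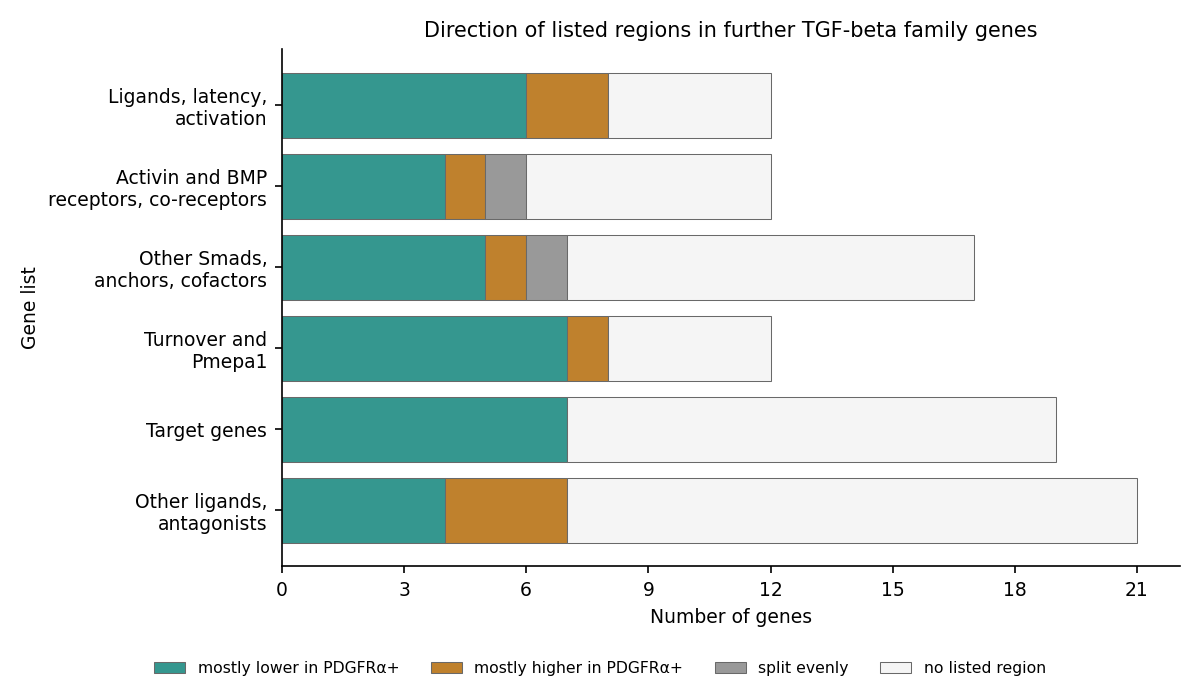
Number of genes (horizontal axis) in 6 lists of the TGF-beta family whose regions were mostly lower in PDGFRα+ (green), mostly higher (brown), evenly split (dark grey) or that held no region (near white). Green exceeds brown in every list, and the target genes hold 7 mostly lower and 0 mostly higher genes.

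Among genes of ligand latency and activation, 8 of 12 held a region, 6 mostly lower and 2 mostly higher in PDGFRα+. Ltbp1, which binds latent TGF-beta in the matrix, was lower in 12 of 14 regions, with a mean level of 0.420 in PDGFRα+ cells against 0.775 in CD137+ cells. Its paralogue Ltbp4, a matrix protein of elastic fibres that binds latent TGF-beta, was higher in 4 of 4, with a mean level of 0.708 in PDGFRα+ cells against 0.272 in CD137+ cells. Its regions lay within a stretch of 4.76 kb, and 1 of them held 57 cytosines. Itgb6, a subunit of an integrin that activates latent TGF-beta, was lower in 7 of 8 (0.370 in PDGFRα+ cells against 0.741 in CD137+ cells), and Itgb5 in 3 of 4.

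Among activin and BMP receptors and co-receptors, 6 of 12 held a region, 4 mostly lower, 1 mostly higher and 1 split. Acvr1, a type I receptor, was lower in 5 of 6 regions, Bmpr1b in 4 of 5 and Bmpr1a in 2 of 2 (0.224 in PDGFRα+ cells against 0.788 in CD137+ cells). Eng encodes endoglin, the co-receptor related to betaglycan, and was higher in 2 of 2 regions, at 0.890 and 0.942 in PDGFRα+ cells, against 0.191 and 0.207 in CD137+ cells. It was thus opposite in direction to Tgfbr3. It was also the only one of 60 list genes with a promoter window whose window was overlapped, against 1.62% of all genes with a window, so the count is near the background. The 250 bases before its start, with the 40 that lie in the region chr2:32646555-32646946 in capitals, are shown because this is the one matched promoter of the pathway that a listed region reached.
Eng, chr2:32646345-32646594, plus strand: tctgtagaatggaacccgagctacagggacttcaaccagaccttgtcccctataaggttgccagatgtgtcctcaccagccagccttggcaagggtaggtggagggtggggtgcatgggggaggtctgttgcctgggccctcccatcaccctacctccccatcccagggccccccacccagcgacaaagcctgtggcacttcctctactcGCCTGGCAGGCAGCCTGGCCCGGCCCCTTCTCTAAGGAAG

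Eng is a gene of endothelial cells, and most regions of endothelial and leukocyte markers were likewise higher in PDGFRα+. Of the 4 endothelial markers examined, all 4 held a region, and 7 of their 10 regions were higher in PDGFRα+. Pecam1 (4 regions), Kdr (2) and Cdh5 (1) were higher in all of theirs, with mean levels of 0.931, 0.936 and 0.883 in PDGFRα+ cells, against 0.509, 0.562 and 0.254 in CD137+ cells, while Tek was lower in 3 of 3. Of the 5 leukocyte markers, all 5 held a region, with 18 of 20 regions higher in PDGFRα+. Mean levels per gene were 0.519 to 0.915 in PDGFRα+ cells against 0.185 to 0.582 in CD137+ cells. Ptprc, Ikzf1 and Laptm5 were higher in all of theirs, while Cd74 and Spi1 each had 1 lower and 1 higher region. The mean of Spi1 was lower in PDGFRα+, at 0.519 in PDGFRα+ cells against 0.582 in CD137+ cells. Of 3 mesothelial markers 2 held a region, with 6 of 7 lower, and of 4 mural markers 2 held one, with 3 of 3 lower. Over all listed regions 77.7% were lower and 22.3% higher in PDGFRα+, so these small mesothelial and mural counts are near the background. The sort marker gene Pdgfra had 1 region, at 0.210 in PDGFRα+ cells against 0.769 in CD137+ cells, and Tnfrsf9, the gene of CD137, had none. Whether a difference in cell mixture has a part in the higher regions of Eng, Ldlrad4, Smad3 or any gene named here was not tested.

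Among the remaining Smads, anchors and cofactors, 7 of 17 genes held a region, 5 mostly lower, 1 mostly higher and 1 split. Ski, a repressor of Smad-driven transcription, was lower in 6 of 6 (0.384 in PDGFRα+ cells against 0.846 in CD137+ cells). Dab2, an adaptor of receptor endocytosis, was split 3 and 3, and was mostly higher when the flanks were left out. Tgfb1i1 was lower in 2 of 2, both in the flank beyond the gene, and Smad9 in 1 of 1. Smad4, the partner of all receptor-regulated Smads, held none.

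Among genes of Smad and receptor turnover, 8 of 12 held a region, 7 mostly lower and 1 mostly higher. The ubiquitin ligase genes Smurf1 and Smurf2, whose products are brought to the receptor by Smad7, were lower in 5 of 5 regions (0.339 in PDGFRα+ cells against 0.876 in CD137+ cells) and 3 of 3 (0.272 in PDGFRα+ cells against 0.798 in CD137+ cells). Their relatives Nedd4l and Wwp2 were lower in 5 of 6 and in 2 of 3. Pmepa1, the paralogue of Ldlrad4 and like it an inhibitor of the pathway, was the mostly higher gene, with 1 region of 5 cytosines at 0.900 in PDGFRα+ cells against 0.507 in CD137+ cells.

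Of 19 target genes, 7 held a region, all 7 mostly lower in PDGFRα+, against 70.4% of all protein-coding genes with a region. So few genes cannot be told apart from that background. Col1a1 and Snai1 held regions only in the 2 kb flanks, and Lox also had a region there. Col1a2, a fibrillar collagen gene, was lower in 3 of 3 (0.163 in PDGFRα+ cells against 0.669 in CD137+ cells), Lox, a collagen crosslinking enzyme gene, in 2 of 2 (0.0910 in PDGFRα+ cells against 0.479 in CD137+ cells) and Zeb2 in 2 of 3. Ccn2 and Tgfbi, common reporters of the pathway, held none. Of 21 other ligands and antagonists of the family, 7 held a region, 4 mostly lower and 3 mostly higher. Bmp6 (8 of 8 regions) and Fstl1, a follistatin-like gene (4 of 4), were lower, with means of 0.257 and 0.243 in PDGFRα+ cells, against 0.779 and 0.823 in CD137+ cells. Bmp2 was higher in 2 of 2 (0.809 in PDGFRα+ cells against 0.354 in CD137+ cells) and Bmp7 in 3 of 4.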

How the data were processed

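Whole-genome bisulfite sequencing was done on 1 PDGFRα+ and 1 CD137+ library, and the authors deposited 1 table of regions called as different between them. Methylation levels are deposited as a fraction (0 to 1) for each library, and the signed area statistic of each region is a score that the authors deposited. Positions are on mm10, according to the submitters' processing notes. Aligner, callers, thresholds and coverage were not given in the sources used here, so depth is unknown, no interval can be given, and unlisted sequence has no level.

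Differences were recomputed as PDGFRα+ minus CD137+, and they equal the deposited ones within 0.0002 in all 28141 regions. Where regions meet RefSeq promoter windows, 249 of 249 starts plus 1 and 237 of 237 ends fell on a CG dinucleotide. Starts are taken as counted from 0 in the table and are printed plus 1. A start counted from 1 at the C of a CG would pass too, so an offset of 1 base is not excluded. In 88 of 88 regions wholly inside a window the number of cytosines was at most 2 per CG. In 73 of the 88 it exceeded the number of CG dinucleotides, so cytosines of both strands are counted. Lengths here include both ends.

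Gene spans came from RefSeq on GRCm38.p6, and all symbols matched. Exons were not used. A gene is mostly lower or higher when most of its regions are. All 10 genes are named, and from each of 6 family lists the 4 genes with the most regions. Ccn2, Tgfbi, Smad4, Pmepa1, Tgfb1 and the regions beyond the flanks were added after their values were seen. Genes and lists were chosen with earlier results of these data known. No test was made, since each group had 1 library. The region search was checked by exhaustive comparison on 300 genes, of which 0 differed. Alternatives covered minimum difference, minimum cytosines, flank, merging of neighbours, the area statistic and weighting. Python 3.11.15, numpy 2.4.6, pandas 2.3.3 and matplotlib 3.10.9 were used.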

Additional observations from a re-analysis of the deposited data

How the results depend on the processing

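Requiring an absolute difference of at least 0.5 left 29 lower and 7 higher regions and 3 mostly higher family genes. At least 10 cytosines left 28 lower and 7 higher regions and 19 mostly lower family genes, and an area statistic above the median left 30 lower and 7 higher regions. These are smaller by construction, and the share of lower regions stayed between 73.4% (10 kb flanks) and 81.1% under the alternatives run. The median difference kept its sign under each of them. Without flanks 38 family genes held a region, 28 mostly lower and 10 mostly higher, against 42, 32 and 8 with 2 kb flanks. The flank of 10 kb turned the majority of Tgfbr2 to higher (4 against 2) and split Tgfb3 (1 and 1). The minimum difference of 0.5 split Smad3 (3 and 3) and Smad7 (1 and 1), and merging of neighbours and the area filter each split Smad7 (1 and 1). Among the 10 genes, no other with a region lost its lower majority under the alternatives run. No paired analysis was possible because each group has 1 library. Unknown read depth limits all levels, most of all in regions of 4 or 5 cytosines.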

Other observations

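Regions beyond the 2 kb flanks, up to 50 kb from a gene end, were also read. All 3 such regions around Tgfbr1 were higher in PDGFRα+, at 0.887, 0.917 and 0.958 in PDGFRα+ cells, against 0.294, 0.498 and 0.295 in CD137+ cells. Around Tgfbr2, 5 of 6 were higher, and the largest, with 36 cytosines 41.3 kb from the start end, stood at 0.949 in PDGFRα+ and 0.423 in CD137+. Around Tgfbr3, 4 of 6 were lower and 2 were higher. Around Smad6 both were lower, and Smad3 and Ldlrad4 each had 1 such region, also lower. Tgfb2, Tgfb3 and Smad2 each had 1, which was higher, and Smad7 had 1 higher and 2 lower. The region near Tgfb2, at 0.922 in PDGFRα+ cells against 0.440 in CD137+ cells, was thus opposite to those inside the gene. These regions were read after the values of the genes were seen, and most lie at no protein-coding gene, so they are assigned to none. Over all listed regions 77.7% were lower and 22.3% higher in PDGFRα+. The small counts per gene given here were not tested against these shares.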
